A study of Zea mays with 8 samples.

Results

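Gene expression in immature ears was compared between the wild-type hybrid WTF1 and its inbred parent B73, with 2 RNA-seq libraries in each group and 8 libraries in the series. The 4 libraries were chosen by their titles, and both groups were counted after mapping to B73, per the names of the deposited tables. WTF1 had the genotype Mo17/B73 and +/+ in the labels, and B73 was the wild-type inbred parent. A mutant hybrid homozygous for mop1 (mop1F1, written B73/Mo17) and the inbred Mo17, mapped to Mo17, were the other groups, and they serve here for levels beside those of WTF1 and B73, for choosing IDs by their Mo17 counts, for scaling and for a fit of all 8 libraries given as an alternative. The labels give neither plant age nor the number of plants behind a library, so the error in each test is that between libraries, and part of it may be technical.

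B73 and Mo17 are long-used maize inbreds from different breeding groups, and their hybrid is a classic case of heterosis, the greater vigour of a hybrid than of its inbred parents. Maize inbreds differ in which genes they carry and transcribe as well as in the sequence of shared genes. A hybrid receives a copy of each parental genome, so a gene silent in a single parent can be active in the hybrid, and a gene active in that parent alone can be present at a lower dose. Additive expression means a hybrid level at the mean of the parents. The immature ear is the female inflorescence at the stage at which its meristems form spikelets and flowers.

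The files name genes by ID, and the table of symbols used here paired none of the 39498 IDs with a name. Gene lists and markers of ear, leaf, kernel and male tissue were therefore not tested, and IDs stand for genes throughout. The naming of single IDs is limited to 2 in each direction, and no sequence is printed for the same reason. The RNA came from whole ears, so fewer cells that express a gene and less RNA per cell cannot be told apart.

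The gene totals were 11723096 and 26199577 counts in the WTF1 libraries and 18624989 and 17154254 counts in the B73 libraries, so that 1 count corresponds to at most 0.0853 CPM, the count scaled to the library total. Ambiguous reads, which overlap more than 1 gene, were 9.70% of the records in WTF1 replicate 1, against 1.29% in WTF1 replicate 2 and 1.89% and 2.18% in B73. The share of records with low alignment quality was 9.35% and 8.31% in WTF1, against 1.76% and 2.24% in B73. The mop1F1 libraries had ambiguous shares of 10.3% in replicate 1 and 1.35% in replicate 2. Their shares of low alignment quality were 9.35% and 8.01%. In Mo17, mapped to Mo17, the ambiguous shares were 1.59% and 2.35%, and those of low alignment quality 5.76% and 6.06%. A high ambiguous share thus goes with the hybrid libraries numbered 1. Low alignment quality was most frequent in both hybrids, less so in Mo17 and least in B73. The part of these shares in the results was not tested. The names of the deposited tables carry the code GP1 for WTF1 replicate 1 and GP5 for WTF1 replicate 2, which the labels do not explain.

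The 2 hybrid libraries differed far more from each other than the 2 B73 libraries did. The biological coefficient of variation, the spread beyond counting error, was 45.1% in WTF1 and 16.4% in B73 (n = 2 each). Of 23341 IDs tested, 4956 (21.2%) were more than 2-fold apart between the WTF1 libraries, against 505 (2.16%) between the B73 libraries, on CPM plus 0.5. Of the 4956, 3495 were higher in WTF1 replicate 1 and 1461 in WTF1 replicate 2. The WTF1 libraries stood on opposite sides of both B73 libraries at 4957 IDs, or 21.2%. These libraries also carry different codes and differ in ambiguous share. Spread that goes with those differences cannot be told apart from spread between plants.

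**Figure D1:**
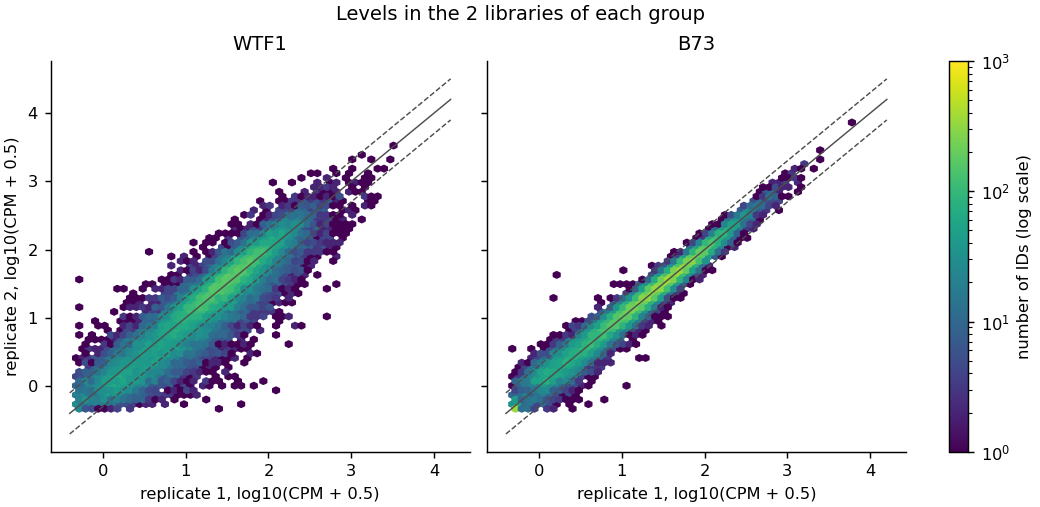
Each hexagon counts IDs by their level in replicate 1 (horizontal axis) and replicate 2 (vertical axis) of WTF1 (left) and B73 (right), as log10(CPM + 0.5), and dashed lines mark a 2-fold difference. The WTF1 cloud is wide, with 4956 IDs outside the dashed lines, against 505 in B73.

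WTF1 was called different from B73 at 825 IDs, 3.53% of the 23341 tested, with 385 higher (1.65%) and 440 lower (1.89%) in WTF1 (edgeR quasi-likelihood test on the 4 libraries alone, Benjamini-Hochberg adjusted p below 0.05). The balance of directions was not stable: the DESeq2 Wald test called 1619 higher and 1361 lower, and a fit of all 8 libraries 503 higher and 293 lower (edgeR). Before adjustment, 5359 IDs (23.0%) had p below 0.05. Both WTF1 libraries lay above both B73 libraries at 6669 IDs (28.6%) and below both at 6265 (26.8%). The median log2 fold change over all tested IDs was 0.04 after TMM scaling. All 825 calls were at least 2-fold on the fitted scale, and the smallest called log2 change had a size of 1.32.

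These counts depended on single libraries. With WTF1 replicate 1 left out, 8145 IDs were called, and with WTF1 replicate 2 left out, 8927 (edgeR), since the spread then came from the B73 libraries and the lone hybrid library was assumed to vary like them. With B73 replicate 1 left out, 164 IDs were called. With B73 replicate 2 left out, none was called at an adjusted p below 0.05, while 2367 had an unadjusted p below 0.05 (edgeR). DESeq2 called 2980 IDs in the 4 libraries, among them 824 of the 825. Each of the fits with a single WTF1 library included all 825 IDs, on the same B73 libraries.

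IDs with no count in either B73 library form a class of their own, because a fold against 0 is only a bound. Of the 39498 IDs, 26269 had counts in both groups, 3593 had counts in WTF1 and 0 in both B73 libraries, 867 had counts in B73 and 0 in both WTF1 libraries, and 8769 had none in the 4 libraries. The filter on low counts passed 22960 IDs of the first class, 356 of the second and 25 of the third. Of the calls, 647 (2.81% of 22985) had a count in B73, with 207 higher (0.901%) and 440 lower (1.91%). The other 178 calls were IDs at 0 in B73. Leaving those aside, lower calls outnumbered higher ones. The adjustment covered all classes together, and all 356 and all 25 tested IDs at 0 in a group had an unadjusted p below 0.05 (edgeR). When IDs at 0 in either group were dropped before the fit, 124 were higher and 281 lower (edgeR). With those IDs kept, 207 higher and 433 lower calls had counts in both groups. The number with an unadjusted p below 0.05 was nearly the same, 4976 against 4978 (edgeR). Many calls at IDs with counts in both groups thus depended on keeping the other classes in the fit and adjustment.

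**Figure D2:**
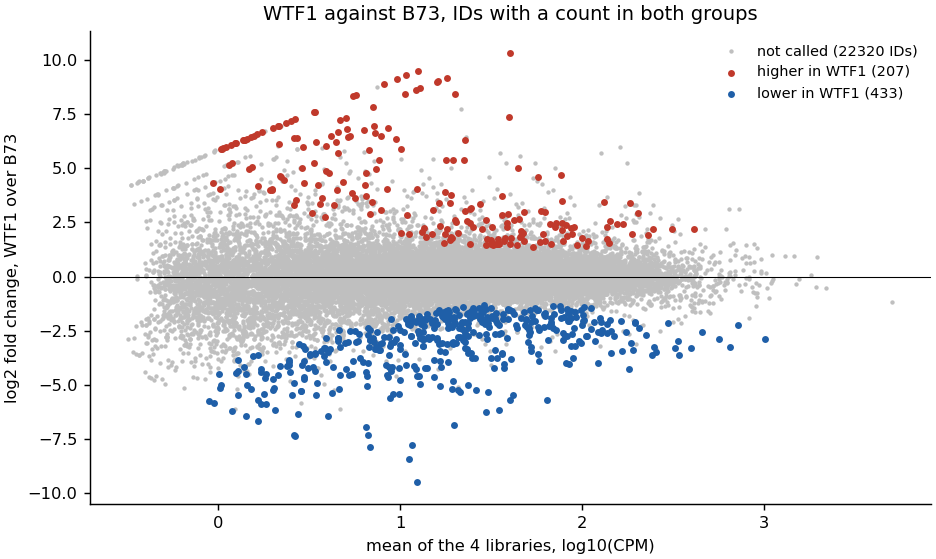
The log2 fold change of WTF1 over B73 (vertical axis) is plotted against the mean level of the 4 libraries as log10(CPM) (horizontal axis) for IDs with counts in both groups. Red dots are the 207 IDs called higher, blue dots the 433 called lower and grey dots the 22320 not called, and the higher calls include IDs with larger changes.

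Among IDs with counts in both groups, the 207 that rose had a median log2 fold change of 3.53 (quartiles 2.20 and 6.12), and 121 of them changed at least 8-fold. Many were nearly silent in the inbred. In B73, 100 of the 207 (48.3%) averaged under 1 CPM, compared with 5.94% of the 22960 tested IDs. At these 100 IDs the median level was 7.32 CPM in WTF1, 6.80 CPM in mop1F1, 9.65 CPM in Mo17 and 0.0861 CPM in B73. In Mo17, 80 of the 100 averaged at least 1 CPM and 15 had no count. All 100 averaged at least 1 CPM in mop1F1. They were picked for a low B73 level beside a high WTF1 level, so these values describe them and test nothing.

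Over all 207 IDs that rose, the median level was 26.9 and 22.4 CPM in the WTF1 libraries, 19.4 and 16.6 CPM in mop1F1, 21.2 and 20.0 CPM in Mo17, and 1.33 and 1.22 CPM in B73. The 4 hybrid and 2 Mo17 libraries all had medians between 16.6 and 26.9 CPM, far above those of B73. The IDs were chosen for a higher level in WTF1 than in B73, so that gap was built in. Mo17 and mop1F1 are set beside the same B73 libraries, so these levels and shares describe the IDs and test nothing. Together the 207 IDs took 1.34% and 1.02% of the counts in WTF1, against 0.235% and 0.238% in B73. Of the 207, 29 (14.0%) were more than 2-fold apart between the WTF1 libraries, against 21.2% of all tested IDs. A call favours libraries that lie together, so a lower share was built in. WTF1 replicate 1 was the lower hybrid library at 70 of the 207 (33.8%), against 46.9% of all tested IDs.

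The ID that rose most by the rule for named IDs was Zm00001d027470.RefGen_V4. It had 120.6 and 37.3 CPM in the WTF1 libraries, 52.3 and 80.9 CPM in mop1F1, 163 and 169 CPM in Mo17, and 0.0537 and 0.0583 CPM in B73, where each library held 1 count. The hybrid and Mo17 libraries were all high and the B73 libraries nearly silent, with no overlap. The ratio of summed counts, scaled to library totals, was 1127 for WTF1 over B73, with a 95% exact interval from 312 to 9315 that covers counting error only. The fitted log2 fold change was 10.33 ± 0.96 (SE, edgeR, adjusted p = 0.0253).

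Zm00001d015986.RefGen_V4 had almost no counts in either inbred. It had 25.6 and 23.7 CPM in WTF1, 15.7 and 27.0 CPM in mop1F1, no count in either Mo17 library and 0.0537 and 0 CPM in B73. All 4 hybrid libraries were high and close to each other, and the 4 parental libraries together held 1 count. The ratio of summed counts for WTF1 over B73 was 868, with a 95% exact interval from 155 to 34321, and the fitted log2 fold change was 9.50 ± 0.68 (SE, edgeR, adjusted p = 0.0235). The ID is listed for Mo17 too, and whether its 0 there means no transcript or an ID that could not be counted was not tested.

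The 433 IDs that fell and had counts in both groups showed smaller changes. Their median log2 fold change was -2.88 (quartiles -3.96 and -2.09), and 198 changed at least 8-fold. The median level was 4.73 and 4.79 CPM in WTF1, 9.14 and 3.08 CPM in mop1F1, 6.70 and 7.01 CPM in Mo17, and 30.9 and 30.4 CPM in B73. The B73 libraries were the high ones, and the hybrid and Mo17 medians all lay below 10 CPM. The IDs were chosen for a higher level in B73 than in WTF1, so these values describe them and test nothing. These IDs took 0.568% and 0.566% of the counts in WTF1, against 3.64% and 3.18% in B73.

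Of the 433, 106 (24.5%) averaged under 1 CPM in WTF1, compared with 6.94% of the 22960 tested IDs. At these 106 the median level was 0.253 CPM in WTF1, 0.397 CPM in mop1F1, 0.610 CPM in Mo17 and 5.96 CPM in B73. Mo17 averaged at least 1 CPM at 41 of them and had no count at 11. The WTF1 libraries were more than 2-fold apart at 23 of the 433 (5.31%), against 21.2% of the tested IDs, and a call favours libraries that lie together. WTF1 replicate 1 was the lower hybrid library at 208 of the 433 (48.0%), against 46.9% of all tested IDs.

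**Figure D3:**
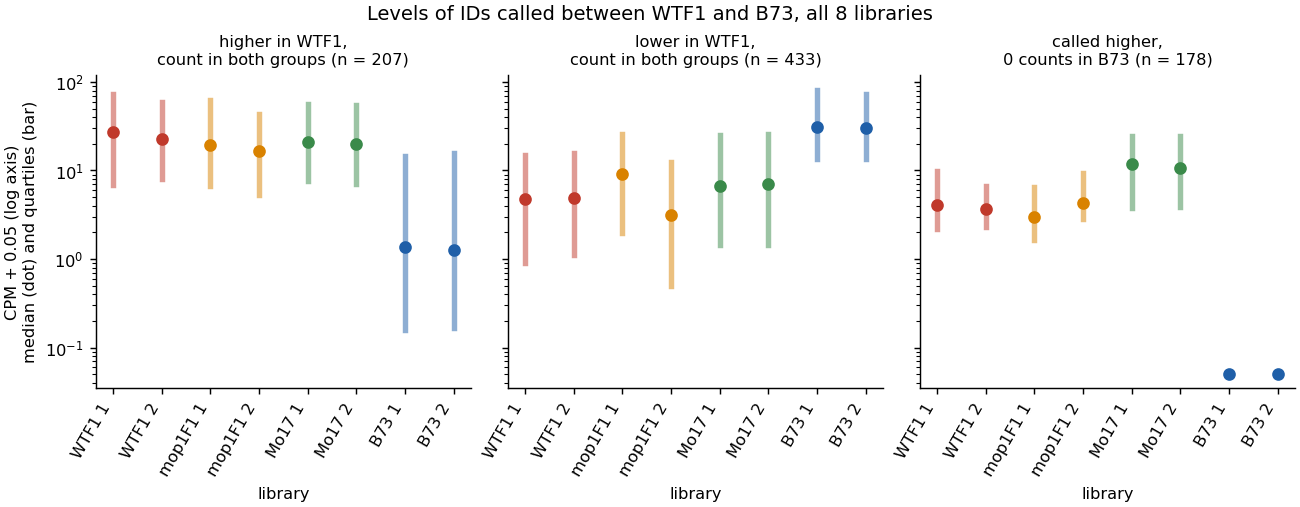
Dots give the median and bars the quartiles of CPM + 0.05 (log axis) in each of the 8 libraries for the IDs called higher with counts in both groups (left), called lower (middle) and called higher with 0 counts in B73 (right). B73 stands apart in all 3 panels because the IDs were chosen for it, while the medians of Mo17 are 21.2 and 20.0 CPM on the left and 6.70 and 7.01 CPM in the middle panel.

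Zm00001d025753.RefGen_V4 fell most by the same rule. It had 0.0853 and 0 CPM in WTF1, 1.66 and 0.230 CPM in mop1F1, 5.31 and 8.15 CPM in Mo17, and 16.5 and 33.5 CPM in B73. Both inbreds were well above both WTF1 libraries, which held 1 count between them. Summed counts were 935 times higher in B73 than in WTF1, with a 95% exact interval from 167 to 36966, and the fitted log2 fold change was -9.49 ± 0.94 (SE, edgeR, adjusted p = 0.0253).

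Zm00001d007071.RefGen_V4 had 0.171 and 0 CPM in WTF1, 2.47 and 0 CPM in mop1F1, 0.422 and 0.231 CPM in Mo17, and 27.6 and 17.0 CPM in B73. Here Mo17 was low as well, and mop1F1 replicate 1 was the highest library after B73. Summed counts were 427 times higher in B73 than in WTF1, with a 95% exact interval from 118 to 3529, and the fitted log2 fold change was -8.44 ± 0.96 (SE, edgeR, adjusted p = 0.0253). All 4 named IDs kept their call without B73 replicate 1 and lost it without B73 replicate 2 (edgeR, adjusted p from 0.0619 to 0.0661). Zm00001d007071.RefGen_V4 also lost it in a fit of all 8 libraries (edgeR, adjusted p = 0.0770).

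**Figure D4:**
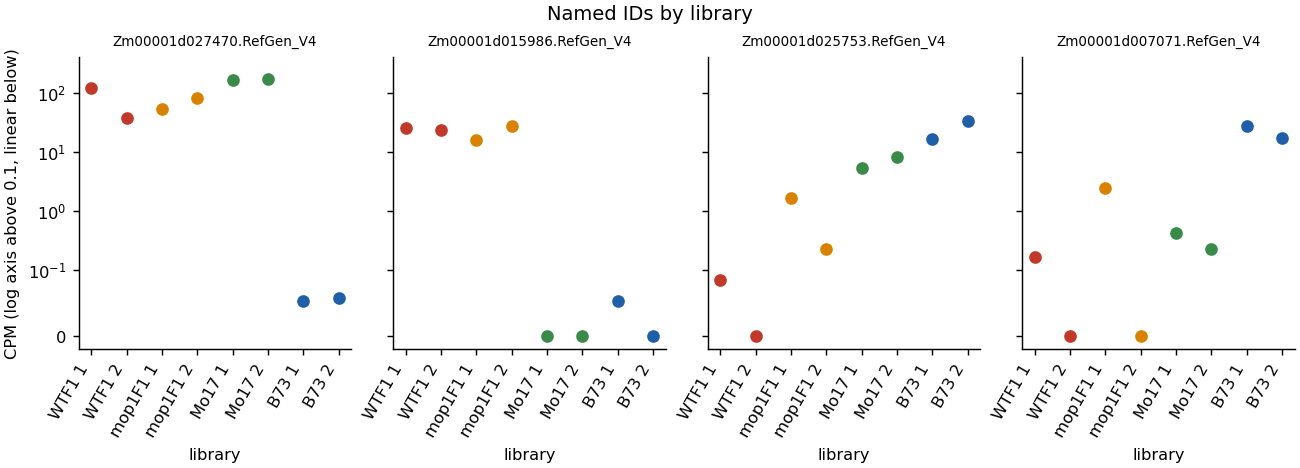
Points give the CPM of the 4 named IDs in each of the 8 libraries, on an axis that is logarithmic above 0.1 and linear below. The 2 IDs on the left are between 23.7 and 120.6 CPM in WTF1 and at most 0.0583 CPM in B73, and the 2 on the right are at most 0.171 CPM in WTF1 and at least 16.5 CPM in B73.

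The hybrid held transcripts of many IDs for which B73 had no count. Among the 356 tested IDs at 0 in both B73 libraries, 178 were called higher (50.0%). An ID of this class passed the filter through its WTF1 counts alone, so a difference was built in. A count of 0 allows up to 3 counts, or 0.160 and 0.173 CPM with TMM factors in the B73 libraries. Against that floor per library, the 178 IDs were at least 9.06-fold to at least 214-fold higher in WTF1, with a median bound of at least 23.2-fold and with 16 IDs at least 100-fold higher. Their highest mean level in WTF1 was 35.7 CPM.

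Of the 178, 168 (94.4%) had a count in a Mo17 library and 152 (85.4%) averaged at least 1 CPM there. Over all tested IDs these shares were 96.8% and 88.3%, so the 178 were found in Mo17 about as often as any tested ID. In a mop1F1 library, 177 of the 178 had a count. The median level of the 178 was 4.05 and 3.59 CPM in WTF1, 2.97 and 4.22 CPM in mop1F1, 11.9 and 10.6 CPM in Mo17, and 0 in B73. Together they made up 0.140% and 0.0946% of the counts in WTF1 and 0.331% and 0.333% in Mo17, so the class is many IDs at low levels.

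Of the 3593 IDs with a WTF1 count and 0 in B73, 3237 were too low to be tested. Both WTF1 libraries held a count at 1546 of the 3593, WTF1 replicate 1 alone at 518 and the deeper WTF1 replicate 2 alone at 1529. Of the 3593, 1697 (47.2%) had a count in Mo17. Among the 356 tested, 41 had no count in either inbred, although their median level was 1.38 and 1.39 CPM in the WTF1 libraries. The highest of these averaged 14.8 CPM. Of the 41, 10 were called higher, beside 178 of the 356 (50.0%) and 1.65% of all tested IDs. IDs of this class could only be higher in WTF1, so these calls describe them and test nothing. A count in a mop1F1 library was found for 40 of the 41, against 99.9% of all tested IDs. All these IDs are listed for Mo17 too. Whether a 0 there means no transcript or an ID that could not be counted was not tested.

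The opposite class was small. Of 25 tested IDs at 0 in both WTF1 libraries, 7 were called lower (28.0%, against 1.89% of all tested IDs), and these also passed the filter through a single group. Their mean level in B73 ran from 1.70 to 75.5 CPM, and against the floor of 3 counts per WTF1 library they were at least 9.01-fold to at least 401-fold lower in WTF1. In each Mo17 library, 6 of the 7 had no count. In the 2 Mo17 libraries, 17 and 18 of the 25 had none, against 955 and 906 of the 23341 tested IDs. Whether these IDs could be counted in Mo17, where they are listed, was not tested.

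At most IDs with a count in B73, none in Mo17 and a number above 460, the hybrid level was below that of B73. The Mo17 libraries had no part in the fit, but the need for a B73 count uses a fitted group and leaves out IDs that can only be higher in WTF1. Of 533 tested IDs with 0 counts in both Mo17 libraries, a count in B73 and an ID number above 460, 28 were called lower (5.25%) and 8 higher (1.50%), against 1.91% and 0.901% of the tested IDs with a count in B73. Their median log2 fold change was -0.96 (quartiles -1.68 and -0.38), with 453 of the 533 (85.0%) below 0. It was 0.04 over all tested IDs, of which 47.7% were below 0. With the IDs at 0 in B73 added, the set held 572 IDs, with 28 lower and 17 higher, a median of -0.86 and 79.2% below 0. All 752 tested IDs at 0 in Mo17, whatever their name or B73 count, had a median of -0.65, with 29 lower and 26 higher. At the 404 IDs with 0 counts in Mo17, a count in B73, a number above 460 and an average of at least 1 CPM over WTF1 and B73, the WTF1 level had a median of 57.6% of the B73 level, with 64.4% in WTF1 replicate 1 and 44.9% in WTF1 replicate 2. Both hybrid libraries were on the low side, and the SD of their median log2 ratios was 0.37 (n = 2). Without WTF1 replicate 1, the median fitted log2 fold change of the IDs without a Mo17 count was -1.50. WTF1 was above the B73 mean at 51 of the 404 (12.6%), compared with 53.8% of the 21286 IDs with counts in both parents.

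IDs numbered 460 or lower centred on the B73 level. They are kept apart because all 319 of them had 0 counts in both Mo17 libraries. They are listed for Mo17, but whether they could be counted there was not tested. Of the 319, 165 were tested. Their median log2 fold change was 0.00 (quartiles -0.35 and 0.54), with 4 called higher (2.42%, against 1.65% of all tested IDs) and 1 lower (0.606%, against 1.89%). At the 153 with at least 1 CPM on average, the WTF1 level was 98.3% of B73 in replicate 1 and 100.2% in replicate 2 at the median. The difference between the 2 sets of IDs was not tested.

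The same ratio was set against Mo17 at IDs without a B73 count. At 427 IDs with 0 counts in both B73 libraries, a count in Mo17 and at least 1 CPM on average over WTF1 and Mo17, the WTF1 level had a median of 39.4% of the Mo17 level, with 39.6% and 33.3% in the 2 WTF1 libraries. At the 21010 IDs with counts in both parents the median was 103.9% of Mo17. Reads of Mo17 copies were placed on B73 in the hybrid and on Mo17 in the parent, and the effect of this on the ratio was not tested.

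**Figure D5:**
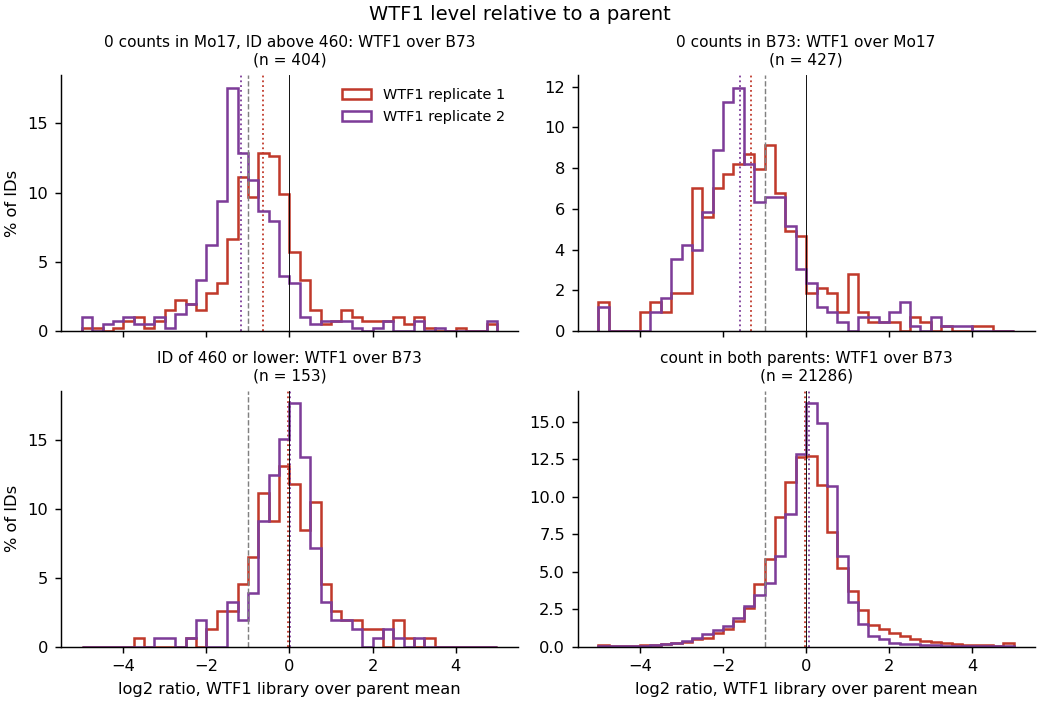
Histograms give the percentage of IDs by the log2 ratio of each WTF1 library to the mean of a parent, with dotted lines at the medians, a solid line at 0 and a dashed line at -1. Against B73, the IDs with 0 counts in Mo17 and numbered above 460 have medians of -0.63 and -1.16 (top left). Against Mo17, the IDs with 0 counts in B73 have medians of -1.34 and -1.59 (top right). The IDs numbered 460 or lower and those with counts in both parents centre near 0 (bottom).

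The calls were spread over all ID numbers and over the levels of expression from 1 CPM up, but were rare under 1 CPM. Among IDs with counts in both groups, the share called lower was 2.18% at a mean of 1 to 10 CPM, 1.89% at 10 to 100 CPM and 1.94% at 100 CPM or more. The share called higher was 1.43%, 0.758% and 0.733% in the same ranges. Under 1 CPM, 1 was called higher and 2 lower of 1157. Over 22 runs of 2500 consecutive ID numbers, the share called lay between 2.70% and 5.30%, with a median of 3.40%, and the median log2 fold change lay between -0.07 and 0.10.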

How the data were processed

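Each deposited file gives the raw counts of 1 library over 39498 IDs, with 5 summary rows in the htseq-count format, per the file headers. Per the submitters' processing notes, which give no versions or roles, the authors' tools were HISAT2, HTSeq, Trimmomatic, FastQC and DESeq2. The genome used is known from the names the authors gave the tables. Annotation release, aligner options and strand setting were not given in the sources used. Reads of overlapping, antisense and closely related genes may therefore be mixed. Replicate numbers follow the titles, although the table of B73 replicate 2 carries the number 1 in its name.

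Summary rows were left out. The 4 libraries were fitted in R 4.3.3 with edgeR 4.0.16, on limma 3.58.1, with filterByExpr, TMM scaling, group means, quasi-likelihood F test, Benjamini-Hochberg adjustment over all 23341 IDs, threshold 0.05. The fit assumes equal spread in both groups. The SE is the log2 fold change divided by the square root of F. CPM of named IDs and shares of counts use gene totals. Median levels of groups of IDs, their Mo17 and mop1F1 levels and ratios to a parent use TMM factors of 8 libraries. Counts of IDs apart, overlap, the lower hybrid library, ranges of level and fold bounds use TMM factors of the 4 fitted libraries. Ratios to a parent and counts of IDs more than 2-fold or 4-fold apart use CPM plus 0.5. The floor of 3 counts and the exact intervals cover counting error only. Named IDs had counts in both groups, passed the threshold, averaged at least 1 CPM in a group, and had no overlap between libraries and an unadjusted p below 0.05 without either WTF1 library, and the largest changes were taken. All 207 higher and 433 lower IDs met these terms. Alternatives were other scaling, filters, DESeq2 1.42.0, the replicate number as a block, all 8 libraries, a fold minimum and leaving out each library. The fit was tested on simulated data with a common spread for all IDs of a group. Such data lack the differences in spread between IDs and do not check the calls reported here. The members, lists and rules were chosen with earlier results of these data known.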

Additional observations from a re-analysis of the deposited data

Results flagged for a closer look

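Several kinds of record outside the gene IDs, which entered no comparison, had a larger share in WTF1 than in the highest B73 library. The ambiguous share was 9.70% in WTF1 replicate 1, against at most 2.18% in B73. Reads of low alignment quality made up 9.35% in WTF1 replicate 1 and 8.31% in WTF1 replicate 2, against at most 2.24% in B73. Unaligned reads made up 3.04% and 3.21% in the WTF1 libraries, against at most 2.88% in B73, and reads with several alignments 3.37% and 3.09%, against at most 2.95%. In the Mo17 libraries, mapped to Mo17, low alignment quality made up 5.76% and 6.06% and unaligned reads 5.97% and 6.11%. The part of these kinds of record in the comparison was not tested. Groups of 2 libraries are too small to single out a library by its distance from the others.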

How the results depend on the processing

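Without a filter on low counts, 2605 IDs were called in all, 2195 of them with a count in B73, 410 at 0 in B73 and 27 at 0 in WTF1. The DESeq2 Wald test called 2980, 2566, 414 and 28 in the same classes. Dropping IDs at 0 in a group before the fit left 405 calls, 124 higher and 281 lower. In a fit of all 8 libraries 796 IDs were called, 503 higher and 293 lower, and 530 of them were among the 825; 2 IDs at 0 in WTF1 were called. More IDs were also called higher than lower with no filter (1440 and 1165), with DESeq2 (1619 and 1361), without WTF1 replicate 2 (4613 and 4314) and without B73 replicate 1 (89 and 75). With a block for the replicate number, the calls were 1216 in all and 1003 with a count in B73; the numbers give no sign of pairing (correlation of the deviations -0.05 over IDs). DESeq2 size factors (882 calls), 1 CPM in 2 libraries (832) and a minimum log2 change of 1 (825) stayed within 1.5 times. Leaving out 1 library at a time gave from 0 to 8927 calls in all, 0 to 8616 with a count in B73, 0 to 554 at 0 in B73 and 0 to 48 at 0 in WTF1, and a median log2 fold change from -1.50 (without WTF1 replicate 1) to -0.80 at IDs without a Mo17 count. More than 4-fold apart were 929 IDs in WTF1 and 14 in B73; at a mean of at least 5 CPM, 155 IDs in B73 were more than 2-fold apart. The cause of these shifts was not tested beyond what each setting changes by construction. Gene lists could not be run under any setting.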

Other observations

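A small group of IDs carries an older style of name that begins with GRMZM5G. There are 174 of them, also without symbols here. They summed to 36.9 and 74.1 CPM in WTF1, 44.2 and 79.5 CPM in mop1F1, 0 in Mo17, and 10.7 and 6.18 CPM in B73. No ID of the 174 had a count in Mo17, which can mean that they were outside the gene set used there. Of the 15 tested, 5 (33.3%) were called higher in WTF1 than in B73 (edgeR quasi-likelihood test, adjusted p below 0.05), against 1.65% of all tested IDs. Their median log2 fold change was 2.45, against 0.04 over all tested IDs. Both WTF1 libraries were above both B73 libraries in this sum. This set was chosen after its values were seen, so its share of calls and its median describe it and test nothing. How many of the 15 passed the filter on low counts through WTF1 alone was not tested.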
